A study of Mus musculus with 12 samples.

Results

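Glypicans and the enzymes that build and sulfate glycosaminoglycan chains were followed in open chromatin of NIH/3T3 cells, an established mouse embryonic fibroblast line. The 10 genes are the glypicans Gpc1, Gpc3, Gpc4 and Gpc6, the chondroitin chain enzyme gene Chsy3, and the heparan sulfate sulfotransferase genes Ndst1, Hs6st2, Hs3st1, Hs3st3a1 and Hs3st3b1. They were chosen by a rule that used the group means of WT, PTC1, PTC2 and LD at these regions, with earlier results known, so their own values below are a description and no p-value is given for them. Calls at further regions inside these genes are counted only beside the share over all regions, and nothing is read from them. All regions whose listed gene name was one of the 10 were taken, which gave 12 of 81995 regions and covered 7 of the 10 genes. All 12 regions passed the filter on low values. Gpc3, Hs3st1 and Hs3st3a1 had no region listed with them. Positions in the RefSeq annotation were used to find 67 further regions inside the spans of the 10 genes. A region with no gene name covered the start of Hs3st1 and is counted apart from these 67, so 8 of the 10 genes had a region at the start.

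The study asked how chromatin accessibility changes in cells that carry different mutations of the gamma-actin gene Actg1, and made 3 mutant genotypes with CRISPR-Cas9. WT cells had no Actg1 mutation. PTC1 cells carried the Actg1 changes c.280_281insT as well as c.[280A>G; 280_281insT], which place a premature stop codon in exon 3. PTC2 cells carried Actg1-202:r.1096_1097insn[4036], an insertion of 4036 nucleotides with a premature stop codon in exon 5, and LD cells had lost the full Actg1 locus. Each genotype had 3 biological replicates, and each library came from 25000 cells. The labels do not say whether the replicates of a genotype came from separate clones, so error terms measure the spread between these libraries, and 1 clone cannot be told apart from its genotype. Accessibility was measured by ATAC-seq, an assay that uses a transposase to cut and label open DNA. Normalized read counts summed to between 31290000 and 34800000 per library. A scaling estimated from the values put the reads behind them at 24970000 to 44970000. Libraries of 1 genotype correlated at r = 0.982 to 0.987 over regions and those of different genotypes at 0.817 to 0.933. All 10 fibroblast marker genes had a region, with a median of the group means of 1437, and of the other lists 2 of 5 epithelial, 3 of 4 endothelial, 2 of 4 blood and 3 of 4 neural markers did, with medians of 212.8, 99.5, 232 and 243.7. Over all genes the median at the start site region was 977, 1005, 1063 and 922.3 in WT, PTC1, PTC2 and LD. The marker lists overlapped, since the lowest fibroblast group mean was 155 (Col3a1) and the highest neural one 824 (Tubb3). Accessibility at a start site is not a level of RNA.

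Glypicans are proteins held on the outer cell membrane by a lipid anchor, and they carry heparan sulfate chains that bind growth factors and morphogens such as FGF, Wnt, BMP and Hedgehog proteins. The chains are built on a short sugar linker, elongated, and then modified in order, with N-deacetylation and N-sulfation first and 3-O-sulfation last and rarest. Chondroitin sulfate starts from the same linker, so the enzymes of both chains share a substrate. Fibroblasts place these chains at the cell surface and in the matrix around them.

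The starts of these genes fell into 3 kinds. Gpc1, Gpc4, Ndst1 and Hs6st2 were open in every library, and their levels per kb of region stood between 354 and 1025 in every group. Gpc6 and Hs3st1 were open in WT and nearly closed in 1 or both premature stop genotypes. Hs3st3b1 and Chsy3 were nearly closed in WT and open in both premature stop genotypes or in PTC2. On the log2 scale the range of the 4 group means at the listed start sites was 6.15 for Gpc6, 5.07 for Hs3st3b1 and 4.33 for Chsy3, against 0.89 for Gpc4, 0.85 for Hs6st2, 0.67 for Ndst1 and 0.15 for Gpc1. None of these start site regions held the RefSeq start of another gene among the 32851 promoter windows at hand. Those windows lack the starts of Gpc1, Gpc6, Ndst1 and Chsy3 themselves, so another start could have been missed.

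**Figure D1:**
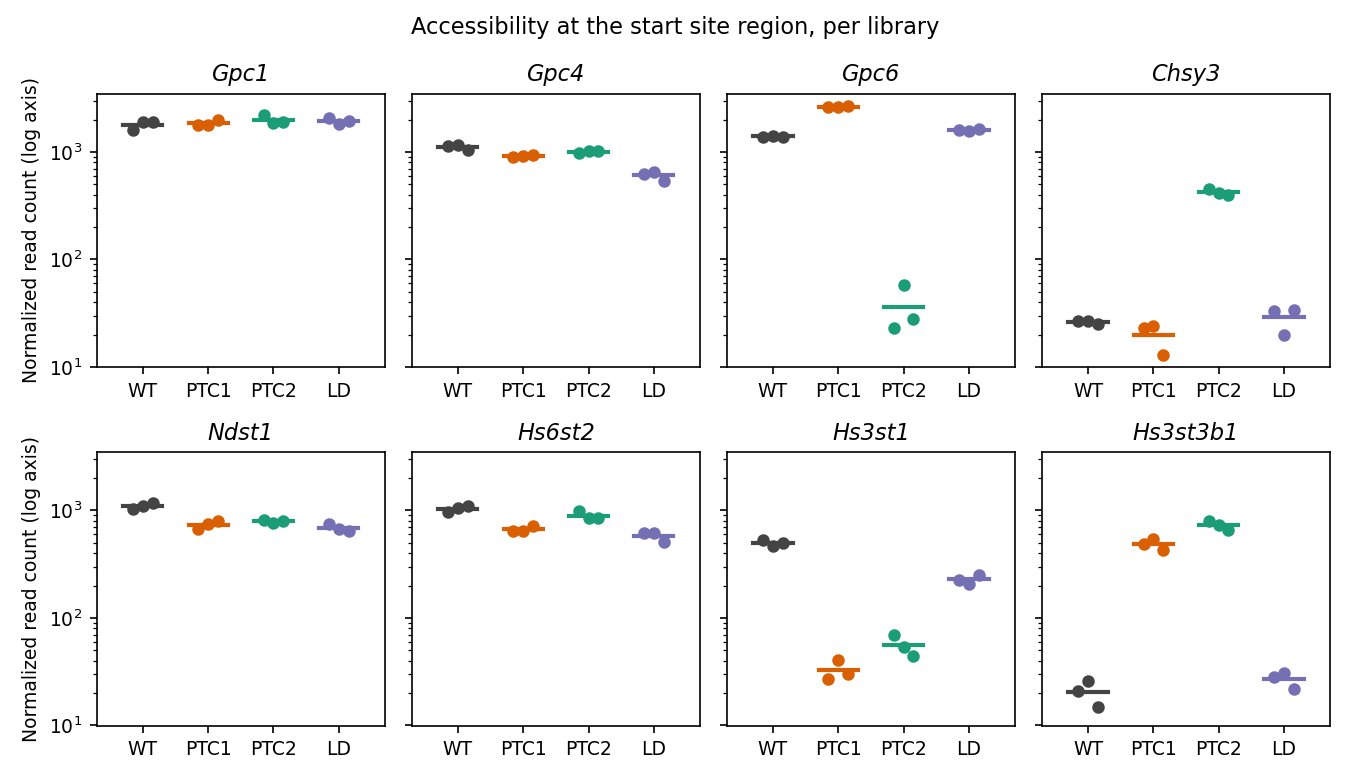
Normalized read count at the start site region of 8 genes, on a log axis, for the 3 libraries (points) and the mean (bar) of WT, PTC1, PTC2 and LD. Gpc6 falls to between 23 and 58 in PTC2, Hs3st3b1 lies at 427 or more in PTC1 and PTC2, and Chsy3 rises to 399 or more in PTC2.

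Among the glypicans, Gpc1, the first member of the family to be cloned and a co-receptor for fibroblast growth factors, was the steadiest. Its start site region (mm10 chromosome 1, 92830995 to 92832934) had 1599, 1897 and 1879 normalized reads in the WT libraries, 1774, 1782 and 1971 in PTC1, 2226, 1847 and 1889 in PTC2 and 2051, 1819 and 1926 in LD. Every mutant group overlapped WT. The log2 changes against WT were 0.04, 0.15 and 0.11 in PTC1, PTC2 and LD (SE 0.071). Every log2 change here is the difference of mean log2(value + 1). Local centring, in which the median deviation of the other regions within 1 Mb is subtracted in each library, turned the direction in PTC1 (-0.090) and PTC2 (-0.032), and subtracting the deviation of the chromosome turned it in LD (-0.020). The 3 comparisons share the WT libraries and are therefore not independent of each other.

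Gpc4, which takes part in Wnt and FGF signalling and in synapse formation, was lowest in LD. Its start site region (chromosome X, 52164195 to 52165708) had 1146, 1164 and 1049 in WT, 893, 908 and 943 in PTC1, 979, 1012 and 1018 in PTC2, and 622, 648 and 542 in LD. No mutant library reached the WT range, and the LD libraries lay below those of every other group. The log2 changes were -0.29, -0.16 and -0.89 in PTC1, PTC2 and LD (SE 0.073). Levels per kb were ordered WT (740), PTC2 (662.9), PTC1 (604.5) and LD (399.2). Both other regions listed with Gpc4 were also lowest in LD, with means of 201, 195, 171.7 and 108.7 in WT, PTC1, PTC2 and LD at 52163476 to 52163854, and of 123.3, 88, 115 and 62.33 at 52162268 to 52162466.

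Inside the Gpc4 gene the differences were wider than at its start. A region 30.02 kb downstream of the start (52134543 to 52135268) had 253, 224 and 198 in WT but 31, 42 and 22 in PTC1, 77, 87 and 66 in PTC2, and 72, 100 and 122 in LD. Here PTC1 and not LD was lowest. A region 97.11 kb downstream (52067329 to 52068289) was lowest in PTC2, at 27, 21 and 19 against 166, 148 and 147 in WT. The 3 regions inside Gpc4 that carry no gene name were each lowest in PTC1 or PTC2, whereas its start and both other listed regions, which also lie inside the gene, were lowest in LD.

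The sequence before the Gpc4 start is shown as an example of a start that was open in every group. It covers the 250 bases upstream of the RefSeq start (GRCm38.p6, the assembly of mm10) at chrX:52164924-52165173 on the minus strand, and the capitals mark a TEAD motif and then, nearer its 5′ end, a GC box.
Gpc4: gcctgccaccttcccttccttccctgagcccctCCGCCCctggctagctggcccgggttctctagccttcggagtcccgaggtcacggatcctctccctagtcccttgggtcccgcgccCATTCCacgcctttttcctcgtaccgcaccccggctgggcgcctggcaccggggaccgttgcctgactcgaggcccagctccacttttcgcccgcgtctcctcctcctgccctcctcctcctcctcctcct
Of its bases 68.4% were G or C, with 18 CpG dinucleotides, against medians of 52.4% and 6 over 32851 such mouse windows. Searched on both strands, the TEAD motif GGAATG was in 12.64% of all windows and the GC box GGGCGG in 32.74%. The other motifs searched, AP-1 (TGANTCA, in 6.749% of windows), the E-box CACGTG (6.021%), the TATA box TATAAA (12.37%) and the CArG box (1.467%), had no match in this window, which says only that these letters are not there.

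Gpc3, whose loss causes an overgrowth syndrome in humans and which restrains Hedgehog signalling, had no region at its start and no listed region, although 9 regions lay in its span. All 9 were lower in PTC1 by value, with a median log2 change of -1.64, while the medians were -0.51 in PTC2 and -0.80 in LD. The region with the highest WT mean (52292265 to 52293044) had 387, 331 and 400 in WT, 107, 96 and 100 in PTC1, 188, 265 and 236 in PTC2, and 195, 151 and 187 in LD. No mutant library reached WT there. A weaker region (52340541 to 52340800) had 23, 16 and 15 in WT and 0, 1 and 2 in PTC1, but 33, 40 and 25 in PTC2, so these 2 genotypes lay on opposite sides of WT.

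Gpc6, a regulator of Hedgehog-driven bone growth, spans 1054.61 kb of chromosome 14 and had the widest range of these genes. Its start site region (116925152 to 116927171) had 1390, 1409 and 1376 in WT, 2612, 2636 and 2675 in PTC1, 23, 58 and 28 in PTC2, and 1601, 1560 and 1641 in LD. The groups did not overlap, and the order was PTC1, LD, WT and PTC2. Against WT the log2 changes were 0.92, -5.34 and 0.20 in PTC1, PTC2 and LD (SE 0.162), which is 0.0248 times the WT level in PTC2 and 1.90 times in PTC1. After local centring the value in PTC1 turned to -1.14 and that in PTC2 was -2.93. Per kb the region held 689 in WT and 18 in PTC2. The other region listed with Gpc6 (116928289 to 116929110) had 341, 255 and 340 in WT, 883, 922 and 785 in PTC1, and 2, 1 and 0 in PTC2, too few for a ratio.

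Along the body of Gpc6, 20 further regions were measured. The median log2 change was 2.05, -2.30 and 0.38 in PTC1, PTC2 and LD. In PTC2 all 20 had a lower mean than WT, and 19 of them were called lower at an adjusted p under 0.05, where 29.8% of all 81985 regions tested were called lower in PTC2 and 28.4% higher. In PTC1, 16 were called higher and 1 lower, where 30.6% of all regions were higher and 31.2% lower. The body region with the highest WT mean (117930293 to 117931617) had 185, 122 and 140 in WT, 759, 787 and 737 in PTC1, 17, 15 and 15 in PTC2, and 338, 261 and 327 in LD. The exception in PTC1 was a region 148.3 kb inside the gene (117073288 to 117074001), with 104, 116 and 86 in WT, 35, 26 and 36 in PTC1, and 179, 245 and 205 in LD.

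The low values in PTC2 reached past the gene. Around the Gpc6 start, 29 neighbouring regions in a row were lower in PTC2 than in WT, from 116911665 to 118124453 (1212.79 kb), with a median log2 change of -2.63. One region in that stretch kept its height, with group means of 1616 in WT and 1600 in PTC2 (log2 change -0.02). Only 5 regions within 1 Mb of the start lay outside the gene, and their median was 3.60, -0.39 and -0.33 in PTC1, PTC2 and LD. Copy number was not tested.

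**Figure D2:**
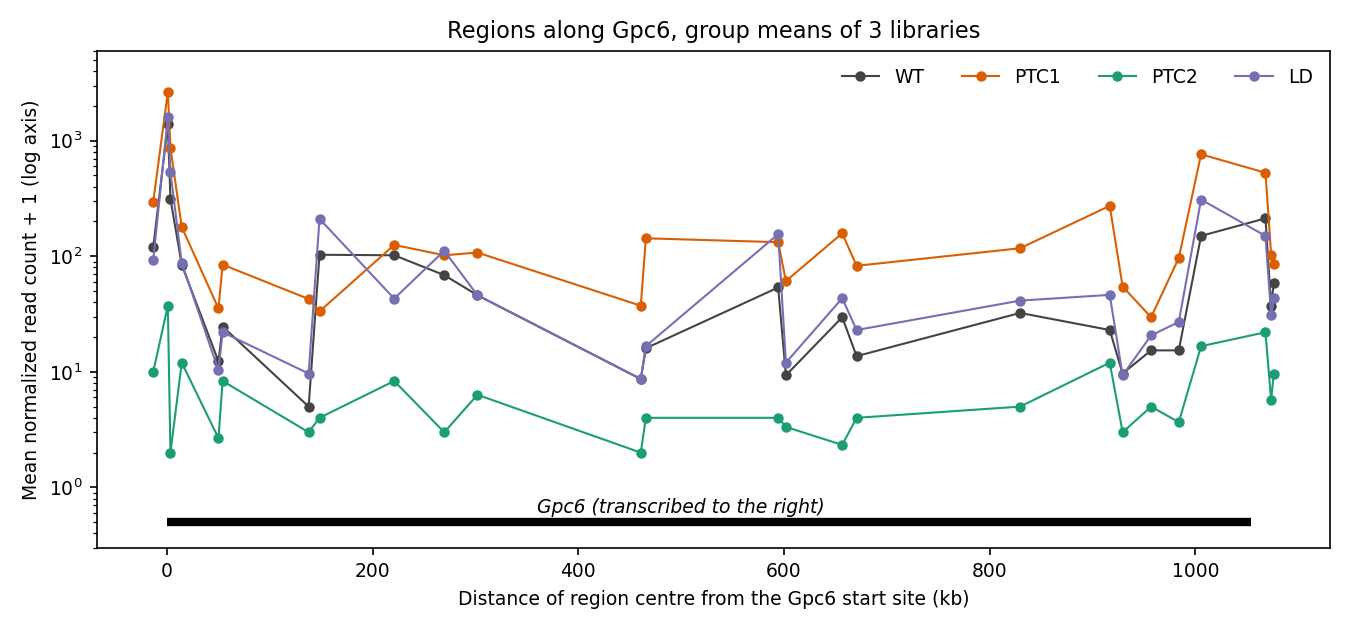
Mean normalized read count plus 1 (log axis, 3 libraries per group) of each region along Gpc6, against the distance of the region's centre from the Gpc6 start in kb. The black bar is the gene, and PTC2 lies below the other groups at the start, with 36.33 against 1392 in WT, and through the gene.

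Chsy3, a chondroitin synthase that extends chondroitin chains, opened at its start in PTC2. The region (chromosome 18, 59174751 to 59175901) had 27, 27 and 25 in WT, 23, 24 and 13 in PTC1, 452, 411 and 399 in PTC2, and 33, 20 and 34 in LD. The PTC2 libraries stood far above all others, PTC1 lay just under WT, and LD overlapped WT. The log2 change in PTC2 was 3.95 (SE 0.242), or 15.4 times WT, and those in PTC1 and LD were -0.43 and 0.10. PTC1 turned to 0.040 relative to the chromosome and to 0.73 after local centring, and LD stood at 0.64 and 0.89. At 366 per kb in PTC2 this start was still less open than the starts of Gpc1, Gpc4, Ndst1 and Hs6st2 in the same genotype.

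A region inside Chsy3, 125.7 kb downstream of the start (59300926 to 59301233), was higher than in WT in both premature stop genotypes, with few reads in PTC1. It had 1, 2 and 0 in WT, 22, 31 and 24 in PTC1, 106, 84 and 85 in PTC2, and 2, 3 and 0 in LD. PTC1 was therefore above WT inside the gene but not at its start. Within 1 Mb of Chsy3, 13 regions had a median log2 change of -1.32, -1.33 and -0.57 in PTC1, PTC2 and LD, so the opening in PTC2 went against its surroundings.

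Ndst1, the N-deacetylase and N-sulfotransferase that starts heparan sulfate modification, was lower in all 3 mutant genotypes. Its start site region (chromosome 18, 60747747 to 60749141) had 1022, 1096 and 1160 in WT, 677, 743 and 796 in PTC1, 818, 758 and 790 in PTC2, and 744, 678 and 641 in LD. No mutant library overlapped WT, while the PTC1 libraries overlapped both other mutants. The log2 changes were -0.57, -0.47 and -0.67 (SE 0.077). The whole of chromosome 18 had a median of -0.45, -0.28 and -0.55 in PTC1, PTC2 and LD, and relative to it the Ndst1 start stood at -0.10, -0.15 and -0.13. Both other listed regions were lower as well, with means of 456, 301, 321.7 and 273 in WT, PTC1, PTC2 and LD at 60750550 to 60750921, and of 411, 134.7, 315 and 211.3 at 60751770 to 60752143.

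Of 9 further regions in Ndst1, the one 18.39 kb inside the gene (60729841 to 60730675) went the other way in PTC2. It had 240, 229 and 295 in WT, 201, 224 and 191 in PTC1, 684, 667 and 613 in PTC2, and 248, 235 and 195 in LD. In LD 7 of the 9 were called lower and 0 higher, where 24.7% of all regions were called lower and 22.6% higher.

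Hs6st2, a 6-O-sulfotransferase of heparan sulfate, was lowest in LD and lower in PTC1. Its start site region (chromosome X, 51680062 to 51681690) had 975, 1044 and 1089 in WT, 649, 649 and 722 in PTC1, 977, 841 and 855 in PTC2, and 612, 610 and 506 in LD. PTC2 overlapped WT, and neither PTC1 nor LD did. The log2 changes were -0.62, -0.22 and -0.85 in PTC1, PTC2 and LD (SE 0.083). Inside the gene, LD was called lower at 13 of 14 regions and PTC1 at 11, and PTC2 was higher at 3 and lower at 3. Of all regions 24.7% were lower in LD, 31.2% lower in PTC1, and 28.4% higher and 29.8% lower in PTC2. The region nearest the start (51650567 to 51651446) had 233, 246 and 268 in WT, 56, 43 and 36 in PTC1, 47, 71 and 57 in PTC2, and 93, 83 and 92 in LD, so PTC2 was low there although its start was near WT.

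Hs6st2, Gpc4 and Gpc3 are neighbours on chromosome X, with starts of Gpc4 and Gpc3 483.3 and 932.4 kb from that of Hs6st2. In LD 35 regions in a row were lower than in WT from 51196978 to 52294091 (1097.11 kb, median log2 change -0.88), a stretch that holds the starts of Hs6st2 and Gpc4. The chromosome as a whole had a median of -0.52 in LD, -0.27 in PTC2 and -0.11 in PTC1. Relative to the chromosome the start of Gpc4 stood at -0.39 in LD, 0.16 in PTC2 and -0.14 in PTC1, and that of Hs6st2 at -0.35, 0.10 and -0.47. After local centring LD stood at -0.18 and -0.15, PTC2 at 0.14 and 0.16, and PTC1 at 0.17 and 0.050, so the direction in PTC1 and PTC2 turned at both genes. Whether X chromosome copies differed between genotypes was not tested.

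The 3-O-sulfotransferases showed the other large differences. Hs3st1, the enzyme that completes the antithrombin-binding site of heparan sulfate, was nearly closed in both premature stop genotypes. The region over its RefSeq start (chromosome 5, 39644094 to 39645447), which carried no gene name in the deposited table, had 530, 468 and 501 in WT, 27, 41 and 30 in PTC1, 70, 54 and 44 in PTC2, and 227, 209 and 251 in LD. The groups did not overlap, and the order was WT, LD, PTC2 and PTC1. The log2 changes were -3.91, -3.16 and -1.12 in PTC1, PTC2 and LD (SE 0.170).

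Hs3st1 lies in a long stretch that fell together in both premature stop genotypes. In PTC1, 29 regions in a row were lower than in WT over 2601.66 kb (median -3.18), in PTC2 32 regions over 2699.61 kb (median -3.53), and in LD 25 over 2339.53 kb (median -2.30). Such a run takes in every change below 0, and the smallest were -0.26, -0.008 and -0.036 in PTC1, PTC2 and LD. In LD the regions within 1 Mb of the start did not fall as a whole and reached 1.90. The 22 other regions within 1 Mb of the start had a median of -3.44, -2.54 and 0.09 in PTC1, PTC2 and LD, while chromosome 5 as a whole stood at -0.03, -0.14 and -0.14. After local centring the start of Hs3st1 stood at -0.98 in PTC1, -0.99 in PTC2 and -1.001 in LD. Copy number was not tested here either.

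Hs3st3b1, which adds the rare 3-O-sulfate that also serves as a herpes simplex virus entry site, opened in both premature stop genotypes and not in LD. Its start site region (chromosome 11, 63921867 to 63922749) had 21, 26 and 15 in WT, 486, 546 and 427 in PTC1, 792, 729 and 661 in PTC2, and 28, 31 and 22 in LD. All libraries of PTC1 lay below those of PTC2, both were far above WT, and LD overlapped WT. The log2 changes were 4.52, 5.10 and 0.39 (SE 0.174), or 22.9, 34.3 and 1.31 times WT. Per kb, the region held 23.4 in WT, 551 in PTC1 and 825 in PTC2, close to the 784 of the Ndst1 start in WT. The 65 regions within 1 Mb had medians of -0.03, 0.27 and 0.05.

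A region 12.19 kb inside Hs3st3b1 (63909815 to 63910378) was also highest in PTC2 and next highest in PTC1, but lowest in LD, with 47, 37 and 45 in WT, 131, 99 and 128 in PTC1, 221, 202 and 214 in PTC2, and 27, 25 and 17 in LD. The 4 regions in the gene body were all lower in LD, by a median log2 change of -0.91, although LD was not lower at the start. One of them (63891507 to 63891841) had 60, 65 and 70 in WT and 47, 35 and 51 in PTC2, so the opening in PTC2 did not extend over the whole gene.

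Hs3st3a1, whose enzyme has the same specificity as Hs3st3b1, starts 513.0 kb away in the opposite orientation and had no region at its start in any genotype. Its 6 regions inside the gene were higher in all 3 mutants by value, with median log2 changes of 2.21, 1.16 and 1.27 in PTC1, PTC2 and LD. The strongest (64502901 to 64503437) had 72, 78 and 82 in WT, 367, 361 and 340 in PTC1, 121, 152 and 145 in PTC2, and 168, 179 and 199 in LD. No mutant library reached down to WT. Another (64468720 to 64469285) had 42, 43 and 35 in WT, 227, 182 and 233 in PTC1, and 102, 110 and 115 in PTC2, but 39, 49 and 58 in LD, which overlapped WT. Hs3st3b1 was thus most open at its start in PTC2, and Hs3st3a1 most open inside its gene in PTC1.

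**Figure D3:**
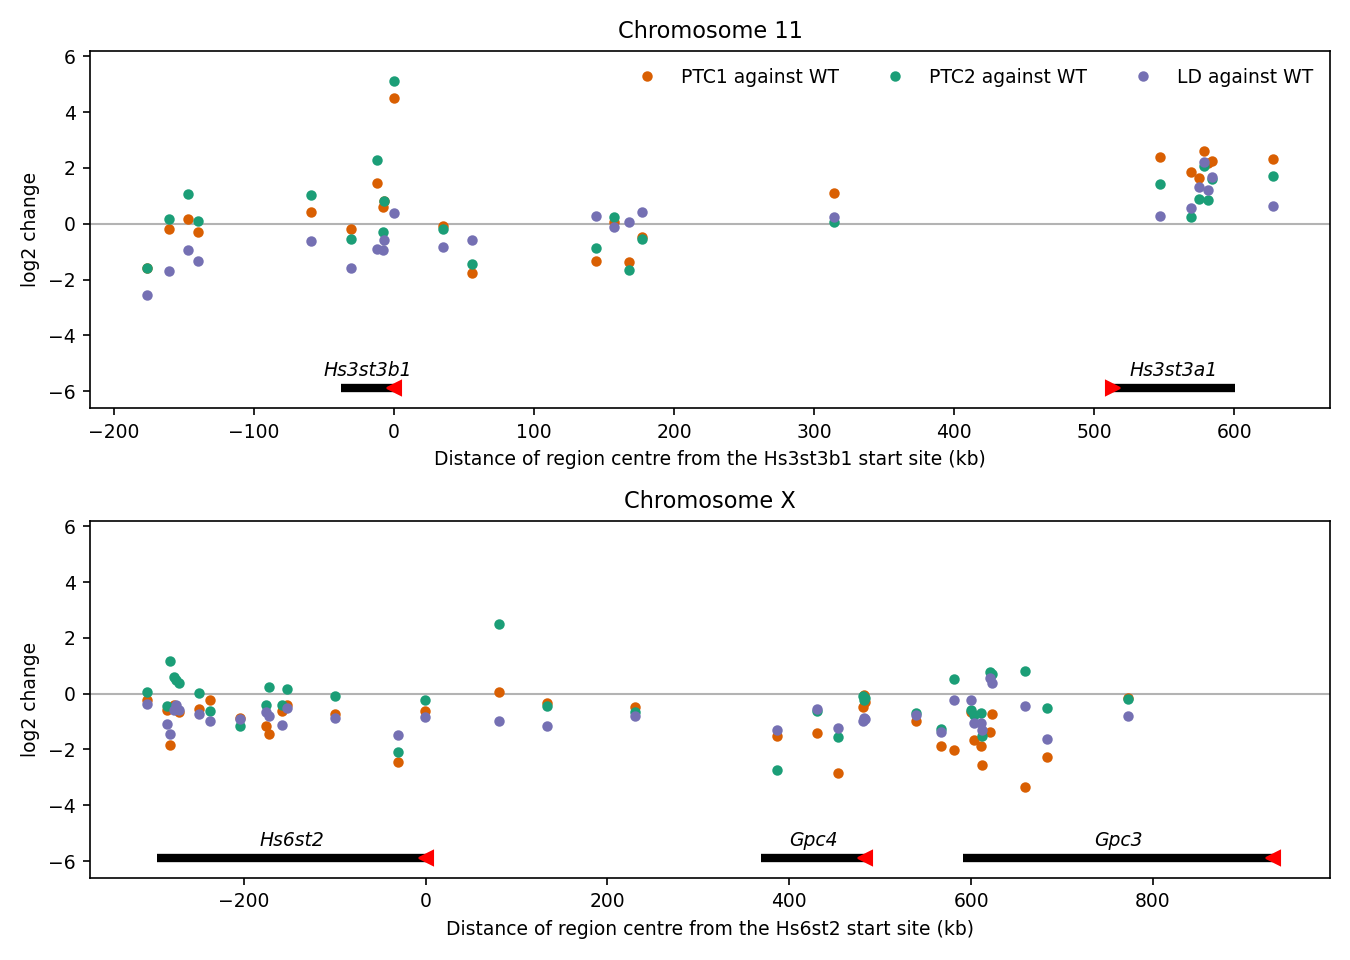
Log2 change against WT of each region around Hs3st3b1 and Hs3st3a1 (top) and around Hs6st2, Gpc4 and Gpc3 (bottom), against the distance of the region's centre from the Hs3st3b1 or Hs6st2 start in kb. Black bars are genes and red arrowheads mark their starts, and the points at the Hs3st3b1 start reach 4.52 in PTC1 and 5.10 in PTC2.

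The sequences upstream of the 3 sulfotransferase genes are shown because the first opened, the second had no region and the third closed. They cover the 250 bases before the RefSeq start (GRCm38.p6), at chr11:63922285-63922534 on the minus strand, chr11:64435082-64435331 on the plus strand and chr5:39644632-39644881 on the minus strand. Capitals mark GC boxes, on either strand, and in Hs3st3a1 also an E-box near the start.
Hs3st3b1: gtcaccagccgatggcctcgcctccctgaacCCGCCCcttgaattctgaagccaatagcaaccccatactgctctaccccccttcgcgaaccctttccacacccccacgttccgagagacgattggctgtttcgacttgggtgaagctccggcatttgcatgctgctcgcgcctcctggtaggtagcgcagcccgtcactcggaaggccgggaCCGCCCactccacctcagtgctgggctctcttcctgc
Hs3st3a1: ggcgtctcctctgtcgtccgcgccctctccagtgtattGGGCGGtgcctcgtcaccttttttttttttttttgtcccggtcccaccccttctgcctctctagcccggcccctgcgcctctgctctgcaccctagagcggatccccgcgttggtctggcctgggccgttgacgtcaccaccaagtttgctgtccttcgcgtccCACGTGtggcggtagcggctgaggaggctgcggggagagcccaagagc
Hs3st1: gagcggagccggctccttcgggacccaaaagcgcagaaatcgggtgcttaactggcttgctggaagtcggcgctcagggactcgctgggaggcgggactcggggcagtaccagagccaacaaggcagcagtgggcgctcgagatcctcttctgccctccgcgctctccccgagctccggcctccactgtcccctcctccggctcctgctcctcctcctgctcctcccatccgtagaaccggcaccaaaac
G and C made up 62.4%, 64% and 66% of bases, and the windows held 17, 20 and 19 CpG dinucleotides, so all 3 were richer in both than the median window. Hs3st3b1 had 2 GC boxes, 32 to 37 and 214 to 219 bases before the start. Hs3st3a1 had a GC box 207 to 212 bases before the start and the E-box 43 to 48 bases before it. None of the 6 motifs matched in Hs3st1. A match is a description of letters and not a binding site, and no match says only that the letters are not in the window.

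**Figure D4:**
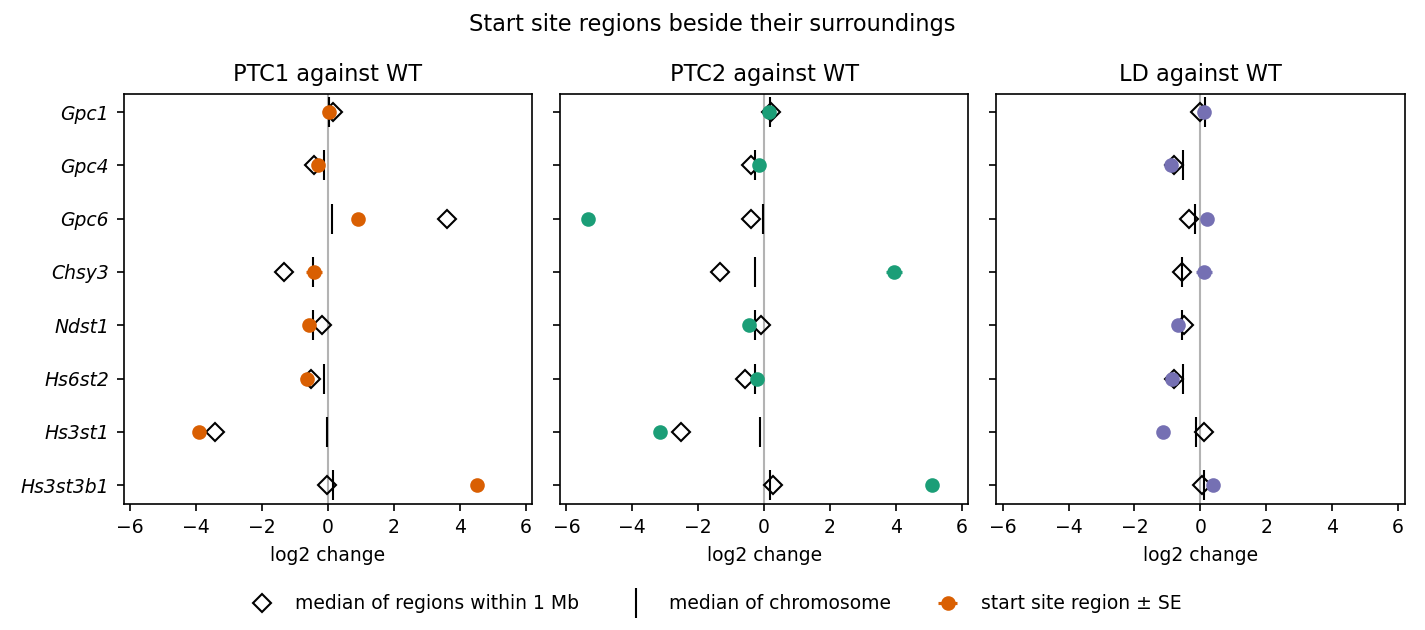
Log2 change against WT at the start site region (filled points, with SE), median of the other regions within 1 Mb outside the gene (diamonds) and median of the chromosome (bars) for 8 genes and 3 comparisons. Hs3st3b1 in PTC1 and PTC2 and Chsy3 in PTC2 lie far from their surroundings, while Hs3st1 in PTC1 (-3.91) lies near its neighbours (-3.44). Gpc6 in PTC2 (-5.34) lies far from its diamond, which rests on only 5 regions outside the gene. Its start is part of a run of 29 regions that were lower in PTC2 (median -2.63).

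Genes on other chromosomes with the pattern most like that of the 3 widest-ranging starts were found by Pearson r of log2(value + 1) over the 12 libraries, which form 4 groups and so give few independent points. For Gpc6 these were Tnfaip6 (r = 0.995), a hyaluronan-binding protein gene with start site means of 253.7, 360, 52.33 and 315 in WT, PTC1, PTC2 and LD, and Lrrc10b (0.985), of 9593 genes compared. For Hs3st3b1, of 9121 genes, they were the muscle Z-disc gene Ldb3 (0.989), with means of 282.3, 676.3, 660.7 and 315.7, and the vesicle GTPase gene Rab3a (0.984). For Chsy3, of 9700 genes, they were the adhesion receptor gene Adgrl1 (0.980), with means of 1810, 1819, 2702 and 1884, and Lrrc75b (0.976). Their differences were smaller in size, since a correlation ignores the scale.

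The wider pathway was read in 8 lists of 83 genes, of which 70 had a start site region that was tested. In PTC1, 21 of the 70 were called higher and 23 lower by limma with Benjamini-Hochberg adjustment, 30% and 32.9%, where 33.3% and 28.5% of all 12337 genes were. In PTC2 26 were higher and 9 lower, 37.1% and 12.9%, against 37.4% and 16.3% of all genes. In LD 16 were higher and 21 lower, 22.9% and 30%, against 16.9% and 29.5%. For the mean of PTC1 and PTC2 against LD, 34 were higher and 22 lower, 48.6% and 31.4%, against 45.2% and 21.7%. Median log2 changes of the 70 were 0.02, 0.10, -0.05 and 0.13, and those of all genes 0.03, 0.10, -0.05 and 0.12. The medians of the pathway genes were thus close to those of all genes. Calls were common among all genes, and each single list below holds only 4 to 13 tested genes. The counts of every list are therefore to be read beside the shares of all genes given above. Whether any single list differed from those shares was not tested, and nothing is read from its counts.

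Among 9 core proteins other than the 10 genes, PTC1 had 1 called higher and 4 lower, PTC2 4 and 2, and LD 1 and 3. Col18a1, the basement membrane collagen that yields endostatin, had 579, 591 and 613 in WT and 45, 23 and 53 in PTC1, a log2 change of -3.93 (SE 0.166, limma adjusted p = 3.80e-18). In PTC2 it had 679, 590 and 661. Gpc2, a glypican of developing neurons, fell in PTC2 from 575, 580 and 579 to 68, 73 and 82 (-2.95, limma adjusted p = 3.71e-20) and was higher in LD (0.39, limma adjusted p = 1.71e-03), and its region also holds the start of Stag3. Sdc3, a syndecan, rose in PTC2 by 0.61 (limma adjusted p = 4.60e-05).

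The syndecan gene Sdc2 and the enzyme genes Ext1 and Has2 lie on chromosome 15, whose regions as a whole also differed between genotypes. Sdc2 rose by 0.38 in PTC1 (limma adjusted p = 9.59e-07) and fell by 0.36 in LD (limma adjusted p = 4.80e-06), and relative to the chromosome it stood at -0.052 in PTC1 and -0.19 in LD, where the call was kept (limma adjusted p = 8.60e-03). Ext1, a polymerase of the heparan sulfate chain, rose in PTC1 and PTC2 (0.46 and 0.51, limma adjusted p = 1.02e-07 and 2.07e-08) and fell by 0.45 in LD, but relative to the chromosome its change in PTC1 was 0.035 and after local centring it was -0.045. Relative to the chromosome Ext1 was still called in PTC2 (0.35, limma adjusted p = 1.09e-05) and in LD (-0.28, limma adjusted p = 3.46e-04). The hyaluronan synthase gene Has2 was higher in the premature stop genotypes than in LD (0.48, limma adjusted p = 2.34e-08), with 0.014 left relative to the chromosome and 0.34 after local centring (limma adjusted p = 9.23e-05). Ext2, the partner of Ext1, rose in LD (0.22, limma adjusted p = 1.23e-02), and 0.097 was left relative to chromosome 2 (limma adjusted p = 0.275). Without WT replicate 3 the change of Ext2 in LD was 0.19 (limma adjusted p = 0.0573).

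Of 5 genes of the linker, PTC1 had 2 called higher and 2 lower, PTC2 2 and 0, and LD 2 and 1. The xylose phosphatase gene Pxylp1 rose in PTC1 (1.20, limma adjusted p = 2.62e-06), from 47, 43 and 37 to 92, 112 and 92, but the sum of all its regions changed by -0.35. The region that rose is centred 1202 bp from the Pxylp1 start and does not cover it. The xylose kinase gene Fam20b fell by 0.39 in PTC1 (limma adjusted p = 3.73e-06), a call lost after local centring (-0.068, limma adjusted p = 0.383), and the xylosyltransferase gene Xylt2 rose by 0.48 in PTC2 (limma adjusted p = 1.59e-05), or by 0.21 after local centring (limma adjusted p = 0.0394). Of the 4 polymerase genes, Extl3 fell by 0.47 in PTC1 (limma adjusted p = 4.19e-07). B3gat3, which adds the last linker sugar, fell by 0.15 in LD (limma adjusted p = 0.0355). That call was lost without WT replicate 1 or 3 or LD replicate 1 or 2, with changes of -0.14, -0.13, -0.15 and -0.10.

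Among 11 other heparan sulfate modifying enzymes, PTC1 had 4 called higher and 5 lower, PTC2 3 and 1, and LD 4 and 3. Ndst4, a relative of Ndst1, had 9, 8 and 5 in WT and 73, 66 and 79 in PTC1 (3.17, limma adjusted p = 7.38e-09). Hs3st5, another 3-O-sulfotransferase, had 97, 91 and 139 in WT, 24, 57 and 39 in PTC1, 22, 34 and 18 in PTC2, and 67, 46 and 68 in LD, so every mutant library lay below WT. Its log2 changes were -1.48, -2.12 and -0.84 (limma adjusted p = 3.25e-05, 1.30e-07 and 0.0133), and that in LD was -0.65 without WT replicate 3 and -0.66 without LD replicate 2 (limma adjusted p = 0.0943 and 0.0819). Hs3st6 rose in all 3, from 86, 77 and 68 in WT to 180, 169 and 206 in PTC1, 123, 131 and 145 in PTC2 and 181, 174 and 131 in LD. The regions read for Hs3st5 and Hs3st6 are centred 3025 and 1318 bp from the starts and do not cover them. Hpse, the heparanase that cuts heparan sulfate chains, had 14, 29 and 26 in WT and 110, 78 and 72 in LD (1.91, limma adjusted p = 2.07e-04).

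Of 13 chondroitin and dermatan sulfate genes, PTC1 had 5 called higher and 1 lower, PTC2 5 and 1, and LD 2 and 3. Chst3, which adds the 6-O-sulfate of chondroitin, rose in all 3 mutants, from 280, 313 and 271 in WT to 651, 581 and 705 in PTC1, 542, 448 and 556 in PTC2, and 535, 531 and 519 in LD. On the log2 scale these were rises of 1.16, 0.83 and 0.88 (limma adjusted p = 1.12e-11, 1.06e-08 and 8.21e-09). Chst14, the dermatan 4-O-sulfotransferase, fell by 0.54 in PTC1 and 0.45 in PTC2 (limma adjusted p = 2.63e-07 and 5.42e-06). Chst7 on chromosome X fell by 0.78 in LD (limma adjusted p = 1.62e-10), and it stood at -0.28 relative to the chromosome and at 0.048 after local centring.

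Among 11 genes of sulfate and sugar supply, PTC1 had 3 called higher and 4 lower, PTC2 4 and 1, and LD 2 and 4. Papss2, which makes the sulfate donor, rose in PTC2 and LD (0.56 and 0.41, limma adjusted p = 3.29e-07 and 5.39e-05), and the rise in LD was 0.13 after local centring (limma adjusted p = 0.199). The sugar transporter gene Slc35d2 fell by 0.57 in PTC1 (limma adjusted p = 1.21e-06), and the phosphatase gene Bpnt2 rose by 0.42 (limma adjusted p = 1.36e-05). The sulfate transporter gene Slc26a2 on chromosome 18 fell by 0.59 in LD (limma adjusted p = 8.81e-08), with -0.046 left relative to the chromosome. Ugdh, which makes the glucuronic acid donor, fell by 0.24 in PTC2 (limma adjusted p = 2.00e-04), and after local centring it stood at 0.011.

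Of 10 lysosomal enzymes that break the chains down, PTC1 had 2 called higher and 2 lower, PTC2 4 and 1, and LD 1 and 2. Hexa rose by 0.68 and Gusb fell by 0.58 in PTC2 (limma adjusted p = 6.09e-04 and 6.30e-07). The Hexa region is centred 1728 bp from the start and does not cover it. Ids on chromosome X fell by 0.97 in LD (limma adjusted p = 1.37e-09), but it stood at -0.47 relative to the chromosome and at 0.15 after local centring. Idua rose by 0.25 in PTC1, in a region that also holds the start of Dgkq, and Sgsh rose by 0.30 in LD (limma adjusted p = 6.75e-03 and 7.29e-04). Both calls were lost after local centring, with 0.17 and 0.14 (limma adjusted p = 0.0834 and 0.0989). The Sgsh region lies at 119354854 to 119356214 on chromosome 11, which also carries Actg1. Arsb fell by 0.19 in PTC1 (limma adjusted p = 0.0105), but stood at 0.28 after local centring, and the call was lost without PTC1 replicate 2 (-0.15, limma adjusted p = 0.0725).

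The last list held 7 genes for hyaluronan and for glypican release, of which PTC1 had 3 called higher and 4 lower, PTC2 2 and 3, and LD 3 and 3. The hyaluronan synthase gene Has3 had 46, 38 and 62 in WT and rose in every mutant, by 1.10, 1.78 and 1.35 (limma adjusted p = 1.86e-05, 5.90e-09 and 1.47e-06). Notum, an enzyme known for cleaving a lipid from Wnt proteins and for binding glypicans, had 283, 293 and 327 in WT, 82, 59 and 68 in PTC1, 134, 143 and 140 in PTC2, and 438, 431 and 452 in LD. Both premature stop genotypes lay below WT and LD above it, with a difference between their mean and LD of -2.16 (SE 0.109, limma adjusted p = 1.97e-16). After local centring the difference was -1.87. The Notum region lies at 120660104 to 120661049 on chromosome 11, which also carries the edited gene Actg1. Whether nearness to the edit bears on its values was not tested. Cemip, which takes part in hyaluronan breakdown, fell by 1.19 in PTC2 (limma adjusted p = 5.08e-08) and had a higher level in PTC1, at 270, 304 and 326 against 138, 181 and 159 in WT. In LD it fell by 0.39 (limma adjusted p = 0.0287), a call lost without WT replicate 2 or 3 or LD replicate 2 (-0.30, -0.39 and -0.27) and after local centring (-0.27).

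**Figure D5:**
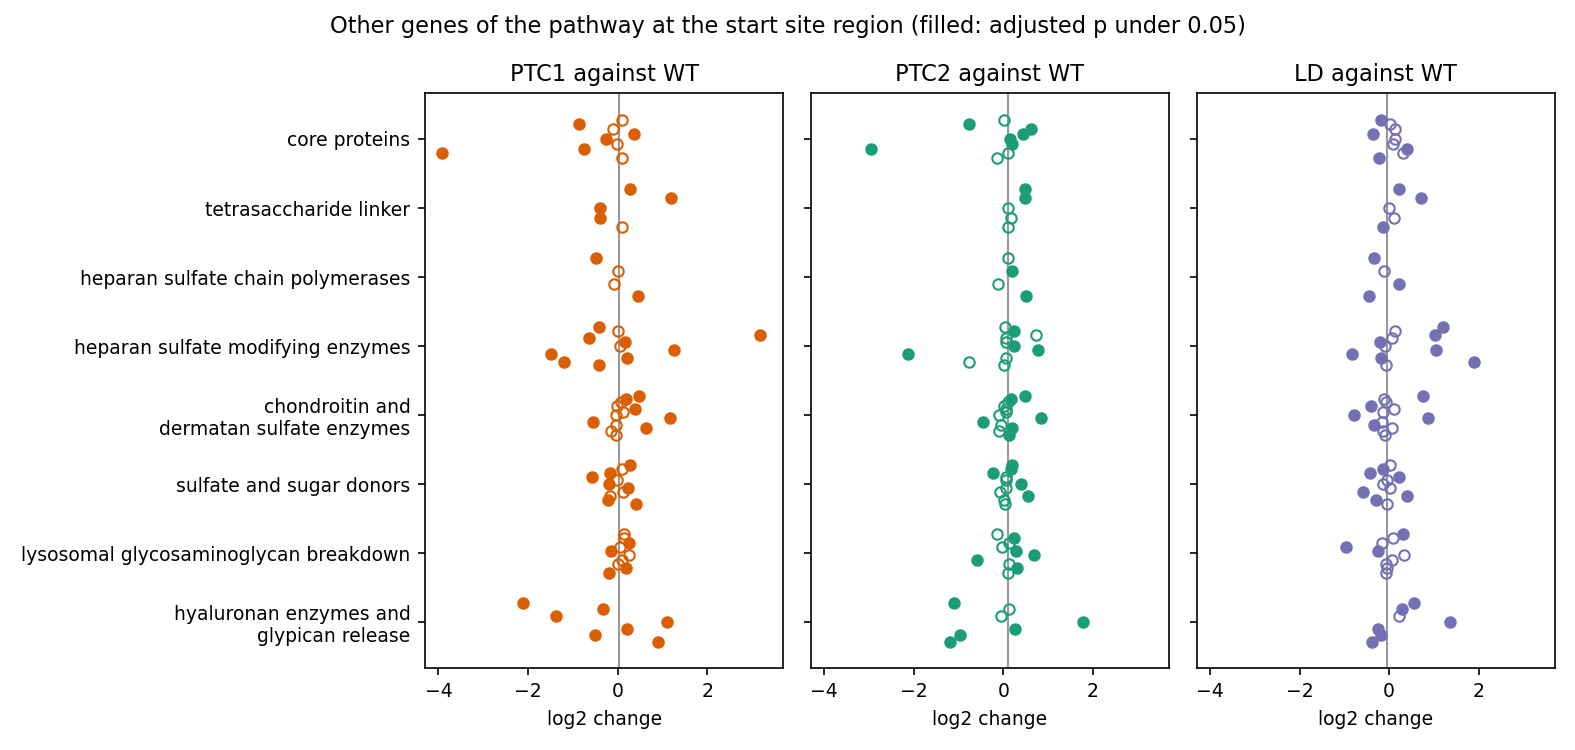
Log2 change against WT at the start site region (the listed region nearest the start) of the 70 tested genes of 8 pathway lists. There is 1 panel per mutant genotype, with filled points at an adjusted p under 0.05 and a grey line at the median of all genes. Col18a1 (-3.93) and Ndst4 (3.17) are the farthest points in PTC1, and Gpc2 (-2.95) is the lowest in PTC2.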

How the data were processed

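The deposited table gives, per region, a value for each of 12 libraries: a score in which the authors scaled whole read counts by 1 factor per library and rounded them, as the values themselves show. Per the submitters' processing notes the tools were Trimmomatic 0.39, STAR 2.7.10a, Picard 2.25.5 and DESeq2 1.30.1, and the build was mm10. The sources used here name no peak caller and no shift for Tn5. Per the file headers, the deposited table also holds the fraction of each region that overlaps a gene body, which was tested in no comparison. Rounding and scaling leave values that are not counts, so limma 3.58.1 (R 4.3.3) was fitted to log2(value + 1) of those 81985 regions whose mean reached 5, with a mean for each group over all 12 libraries, trended empirical Bayes and Benjamini-Hochberg adjustment over all regions. Regions were called at an adjusted p under 0.05. The planned design named a count test only for raw counts. The fit was also run on simulated counts that were not scaled, with few changed regions and only in PTC1. That setting differs from these data, so it does not show how well the fit works here. The start site region of a gene is the listed region nearest its start, and it need not cover the start. For the named genes Hs3st5, Hexa, Hs3st6, Pxylp1, Has3 and Notum it did not. Its centre lay 3025, 1728, 1318, 1202, 760 and 598 bp away in these genes. Among the pathway genes that were only counted, the same held for Has1, Hyal2, Sdc4 and Sulf2. There the centre lay 2063, 1211, 782 and 739 bp away.

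The genes and lists were chosen with earlier results of these data known. Of each pathway list and comparison, the genes named were those with the largest called rise and fall where the higher group had a mean of 20 or more, and further values of those genes are given. Body regions and runs of regions were picked for display after their values were seen. By the planned rule, libraries were paired only if every same-numbered pair correlated over 0.1 in the deviations from the group means. Since 0 of 18 did, they were treated as unpaired. A weak link was still seen: same-numbered pairs had r of -0.004 to 0.045 and other pairs -0.040 to 0.022. In 28 of 36 checks a library correlated best with its own number, where 1 in 3 checks would by chance with 3 libraries per group. What same-numbered libraries share was not tested. Alternatives were other scalings (same median, loess), centring on the chromosome or on all regions within 1 Mb, other filters and pseudocounts, a replicate block, fits of only the groups compared, the sum of all regions of a gene, and leaving out each library.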

Additional observations from a re-analysis of the deposited data

How the results depend on the processing

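Counts of called pathway genes stayed within 1.5 times under every alternative except loess normalization, which gave 25 higher (16 before) and 12 lower (21 before) in LD, and 22 higher (34 before) for the premature stop genotypes against LD. Scaling to the same median gave 39 higher in PTC2 (26 before), at the edge of that limit. The cause of these moves was not tested. With 1 library left out, counts ranged from 19 to 23 higher and 20 to 23 lower in PTC1, 21 to 27 and 9 to 10 in PTC2, and 14 to 17 and 15 to 22 in LD. Scaling to the same median moved the median of all regions to 0.11 in PTC2, -0.06 in LD and 0.11 for the premature stop genotypes against LD, and their higher and lower calls to 28425 and 21014, 15167 and 23919, and 31859 and 21737 (from 23276 and 24451, 18561 and 20278, and 26354 and 26739).

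Local centring (in each library, the median deviation of the other regions within 1 Mb subtracted) turned the sign of Gpc1 (-0.090), Gpc4 (0.17), Chsy3 (0.73), Gpc6 (-1.14), Hs6st2 (0.050), Arsb (0.28) and Ext1 (-0.045) in PTC1, Gpc1 (-0.032), Gpc4 (0.14), Hs6st2 (0.16) and Ugdh (0.011) in PTC2, Chst7 (0.048) and Ids (0.15) in LD, and Ndst1 (-0.16) and Hs3st1 (0.013) for the premature stop genotypes against LD. Centring on the chromosome turned Gpc4 (0.16) and Hs6st2 (0.10) in PTC2, Chsy3 (0.040) in PTC1, Gpc1 (-0.020) in LD, Sdc2 in PTC1 (-0.052) and Gpc1 (0.032) and Ext2 (0.0072) for the premature stop genotypes against LD, and summing all regions of a gene turned Pxylp1 in PTC1 (-0.35). The same median turned Gpc1 for the premature stop genotypes against LD (0.10) and loess turned Chsy3 in LD (-0.039); these 2 and Gpc1 in PTC1 also turned with 1 library left out. Of 62 named changes, 16 lost their call or turned under local and 9 under chromosome centring, 2 each under the same median and the sum, and 1 under loess. With the replicate block the counts were 21 and 23 in PTC1, 26 and 9 in PTC2, and 16 and 21 in LD, as without it. A library correlated best with its own number in 28 of 36 checks, against 1 in 3 by chance. Values near 20 rest on few reads.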
